A study of Mus musculus with 12 samples.

Results

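The genes described here are 40 genes of mitosis and the spindle, chosen by gene symbol, with earlier results of these data known. The probe set of each gene was chosen by a measured value, the highest mean over the 12 arrays. The 40 genes were among the 18194 genes that the array annotation named by a single symbol. All 40 were measured, by 89 probe sets, and all 40 passed the filter on low values that kept 9930 genes for testing. Messenger RNA was measured in embryos of the mouse strain ICR on 12 Affymetrix Mouse Genome 430 2.0 arrays, 2 arrays for each of 6 groups. U0126, at 20 µM, blocks MEK, the kinase that activates ERK. The U0126 day 2.5 group held embryos kept in U0126 and arrested with 4 cells. The released day 3.5 group held embryos released from that arrest, labelled as having 8 cells, and the released day 4.5 group held released embryos between morula and blastocyst. The control embryos were collected at day 1.5 with 2 cells, at day 2.5 with 4 to 8 cells, and at day 3.5 between morula and blastocyst. The design text mentions 2 independent experiments, but the labels tie no array to either, and the p-values measure only the spread between such arrays, which may be technical. The labels do not give the number of embryos behind an array.

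Mitosis is driven by a set of proteins that act in order. Aurora, Polo-like and NIMA kinases ripen centrosomes and attach chromosomes to the spindle, kinetochores on the centromeres bind the microtubules, and the spindle checkpoint holds the cell until every chromosome is attached. The anaphase-promoting complex then removes securin, separase cuts the cohesin that ties sister chromatids, and the central spindle directs the cleavage furrow. In mouse eggs and early embryos many of these mRNAs are stored from the oocyte and lost during the first cleavages, while the embryo's own genome begins to be transcribed, and the first divisions run on spindles without centrioles. Many cell cycle genes of other cells carry short promoter motifs, the cell cycle genes homology region, which the DREAM and MuvB complexes are known to bind, and the CCAAT box, which the factor NF-Y is known to bind.

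Levels are given as log2(intensity + 1), differences between groups are log2 differences on that scale, and each ± after a difference is a standard error from 1 limma fit over the 12 arrays. A gene passed where its p from limma, adjusted by the Benjamini-Hochberg method over the 9930 genes, was under 0.05. The median standard error of a difference was 0.348, so that 2 arrays a group left small differences beyond reach. Levels of different probe sets were not set against each other. Arrays of bulk embryos cannot tell fewer cells of a type from less RNA per cell. The arrays of a group correlated at 0.955 to 0.98 over the tested genes. Among the 40 genes the median distance between the 2 arrays of a group was 0.443 in U0126 day 2.5 embryos and between 0.224 and 0.279 in the other 5 groups. The 6 morula and blastocyst genes checked were all over a level of 5 on at least 2 arrays, and their summed intensity was 16520 to 17756 in released day 3.5 embryos, against 1532 to 2612 in control day 2.5 embryos and 14849 to 27278 in control day 3.5 embryos. These sums are mostly Krt8 and Krt18, and not every marker had this order. Sox2 averaged 6.38 in released day 3.5 embryos, against 4.0 in control day 2.5 and 8.06 in control day 3.5 embryos. Of the 2-cell genes checked, Zfp352 averaged 9.62 in released day 3.5 embryos. Its control means were 11.13 at day 1.5, 5.74 at day 2.5 and 3.51 at day 3.5. Eif1a averaged 10.89 in released day 3.5 embryos, and its control means were 9.12 at day 1.5, 11.30 at day 2.5 and 11.08 at day 3.5. The summed intensity of 5 oocyte genes was 199 to 292 in released day 3.5 embryos, between 446 to 669 in control day 2.5 and 80.8 to 155 in control day 3.5 embryos. Krt8, a keratin of the outer cells of morulae and blastocysts, had levels of 13.18 and 13.17 in released day 3.5 embryos, against 9.98 and 9.19 in control day 2.5 embryos and 13.84 and 12.98 in control day 3.5 embryos. Of the 6 cumulus and granulosa genes and the 5 blood and immune genes on the array, 0 reached a level of 5 on 2 arrays. Of 6 oviduct genes, Ovgp1 and Sox17 did, and Sox17, which endoderm of the embryo also expresses, reached 7.0 and 7.87 in released day 4.5 embryos.

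Control day 1.5 embryos held the highest mean of 23 of the 40 genes, or 57.5%, and of 30.7% of all tested genes. Released day 4.5 embryos held the lowest mean of 14, or 35%, and of 23.3% of all tested genes. These shares are a description and were not tested. The means of Aurkc, an Aurora kinase known for its part in oocytes and early embryos, spanned 4.84 on the log2 scale, from its highest group, control day 2.5, to its lowest, released day 4.5. The span was 2.88 for Stag2, a cohesin subunit, 2.80 for Plk4, the kinase that starts centriole formation, and 2.59 for Nek2, a centrosomal kinase. Plk4 and Nek2 had their highest means in control day 1.5 embryos. At the other end, the group means of Cdc20, an activator of the anaphase-promoting complex, spanned 0.469, and those of Aurkb, the kinase of the chromosomal passenger complex in most cells, spanned 0.47. The control day 2.5 arrays enter 4 of the 8 differences between groups described next, so those are not independent of each other. In the 8 differences, 24 of the 40 genes, or 60%, passed in at least 1 and 16 passed in none, while 76.8% of all tested genes passed in at least 1.

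**Figure D1:**
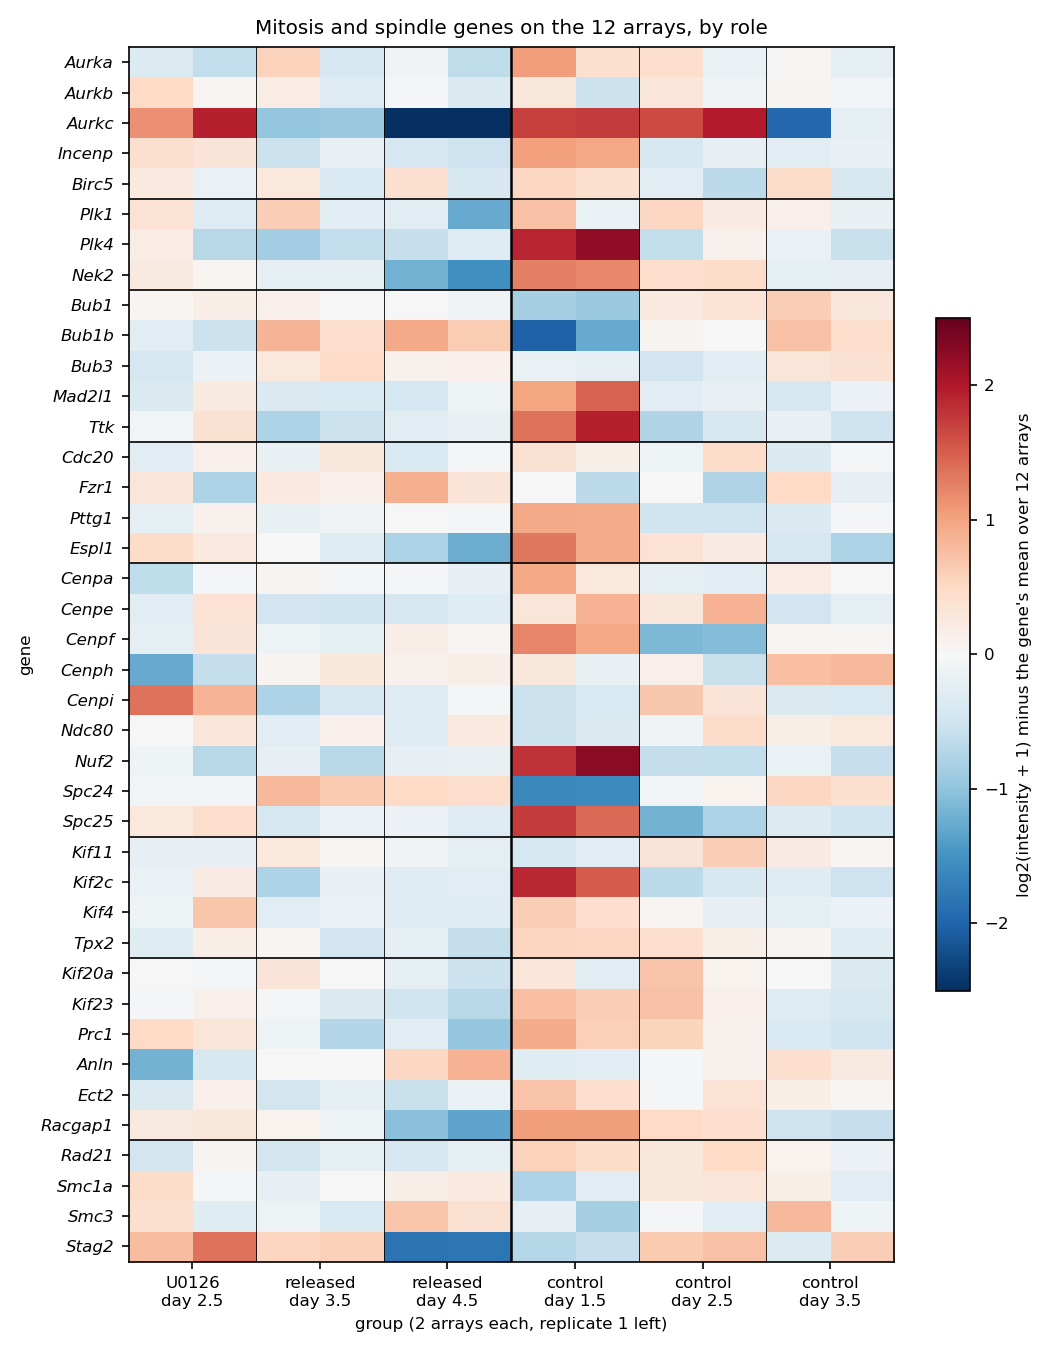
Each row is 1 of the 40 genes, ordered by role, and each column is 1 of the 12 arrays, with U0126 and released embryos on the left and controls on the right. Colour gives the array's log2 level minus the gene's mean over the 12 arrays. The control day 1.5 columns hold the highest mean of 23 genes, and Aurkc and Stag2 are lowest in the released day 4.5 columns.

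The promoters of the genes that moved differ in the letters they hold near the start of transcription. As examples, 4 of them are printed here: Cenpf, Spc25, Nek2 and Aurkc. The sequences are from RefSeq on GRCm38.p6 and cover 150 bases before to 50 bases after the start, 5′ to 3′ on the strand of the gene. Capitals mark TTTGAA (the cell cycle genes homology region) and CCAAT, each searched on both strands, so that a CCAAT on the other strand reads ATTGG. Cenpf lies at chr1:189688037-189688236 on the minus strand, Spc25 at chr2:69206164-69206363 on the minus strand, Nek2 at chr1:191821323-191821522 on the plus strand, and Aurkc at chr7:6995235-6995434 on the plus strand. In these 4 windows 0 bases belonged to both motifs.
Cenpf: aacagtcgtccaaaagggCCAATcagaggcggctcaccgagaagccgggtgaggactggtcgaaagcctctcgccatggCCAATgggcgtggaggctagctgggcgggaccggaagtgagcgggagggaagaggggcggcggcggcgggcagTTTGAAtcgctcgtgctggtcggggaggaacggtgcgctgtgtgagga
Spc25: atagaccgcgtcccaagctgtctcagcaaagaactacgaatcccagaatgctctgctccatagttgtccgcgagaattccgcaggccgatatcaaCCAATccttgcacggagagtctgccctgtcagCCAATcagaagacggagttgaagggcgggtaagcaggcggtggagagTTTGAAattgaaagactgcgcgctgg
Nek2: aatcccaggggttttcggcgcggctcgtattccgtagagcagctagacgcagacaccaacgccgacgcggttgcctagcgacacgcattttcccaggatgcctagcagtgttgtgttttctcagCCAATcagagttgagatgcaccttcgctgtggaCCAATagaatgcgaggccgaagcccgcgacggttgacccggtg
Aurkc: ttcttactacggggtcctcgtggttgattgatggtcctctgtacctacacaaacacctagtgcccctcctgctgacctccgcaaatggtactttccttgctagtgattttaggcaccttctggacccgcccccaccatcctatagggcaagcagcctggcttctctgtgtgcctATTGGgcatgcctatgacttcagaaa
TTTGAA begins 2 bases after the start in Cenpf and 24 bases after it in Spc25, and each of these promoters holds 2 CCAAT boxes upstream of it. The Nek2 and Aurkc windows hold no TTTGAA. The letters did not divide the genes by comparison. Bub1b and Racgap1, which like Nek2 and Aurkc passed after release, hold TTTGAA beginning 40 and 5 bases after the start. Cenpf also passed after release, and Nek2 also passed between U0126 day 2.5 and control day 1.5 embryos. Nek2 has 2 CCAAT boxes, and Aurkc has 1 on the other strand, beginning 24 bases after the start.

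Of the 40 genes, 33 were matched to RefSeq windows running from 250 bases before to 50 bases after the start, and the unmatched ones were Aurkb, Rad21, Stag2, Tpx2, Incenp, Spc24 and Kif20a. TTTGAA was found in 19 of the 33, or 57.6%, and in 20.2% of the 27025 genes of the table. It lay within 50 bases of the start in 18 of the 33, or 54.5%, and in 5.72% of the genes of the table, a distance chosen after the positions were seen. CCAAT was found in 24 of the 33, or 72.7%, and in 41.1% of the genes of the table. The 14 matched genes without TTTGAA in the window were Aurkc, Birc5, Bub1, Cenpe, Cenph, Cenpi, Fzr1, Mad2l1, Nek2, Nuf2, Plk4, Pttg1, Smc1a and Smc3. These counts describe the letters in the windows and were not tested.

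**Figure D2:**
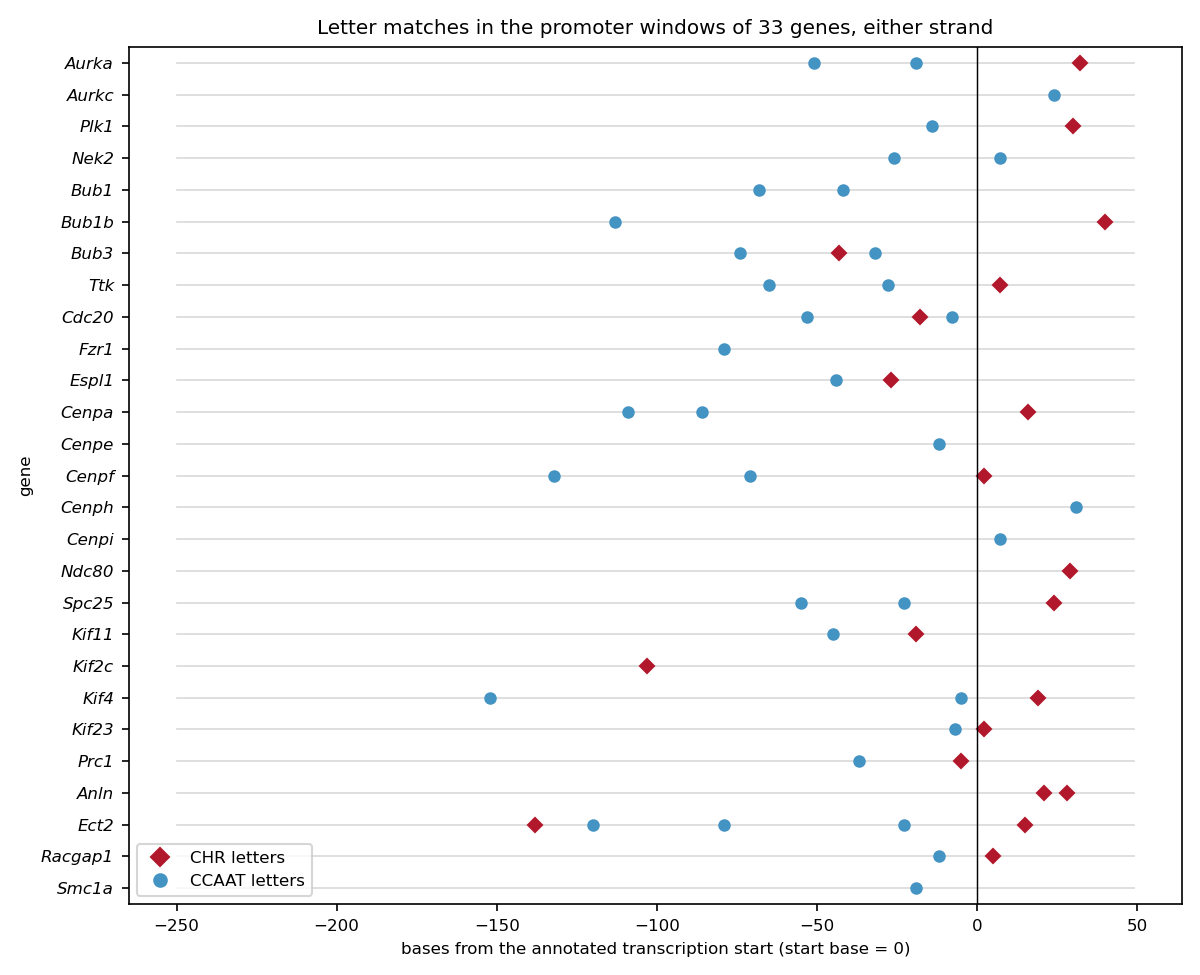
Each row is 1 of the matched mitosis genes that hold TTTGAA or CCAAT, and the horizontal axis is the distance in bases from the RefSeq start of transcription. Birc5, Mad2l1, Nuf2, Plk4, Pttg1 and Smc3 hold neither and have no row. Symbols mark where TTTGAA and CCAAT begin in the window from 250 bases before to 50 bases after the start. TTTGAA lies within 50 bases of the start in 18 of the 33 genes.

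Few of the mitosis genes passed between U0126-arrested embryos and control embryos of the same age. Against control day 2.5 embryos 2 of the 40 genes passed, both higher and both of the kinetochore, while 13.9% of all tested genes passed (9.21% higher and 4.72% lower). The 2 genes were Spc25 and Cenpf, 38 genes did not pass, and at an unadjusted p under 0.05 the count was 7 genes. Both Spc25 and Cenpf were lower in U0126 day 2.5 than in control day 1.5 embryos, as given below. The median difference was -0.05 for the 40 genes and 0.11 for all tested genes, and the median size of a difference, whatever its sign, was 0.353 for the 40 genes and 0.46 for all tested genes.

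Spc25, a subunit of the NDC80 complex that holds microtubules at the kinetochore, had levels of 10.53 and 10.70 in U0126 day 2.5 embryos, against 9.08 and 9.48 in control day 2.5 embryos. Both U0126 arrays lay above both controls, and the difference was 1.33 ± 0.26 (adjusted p = 0.0097). This call was lost when the first control day 2.5 array was left out (1.13, adjusted p = 0.0807) and with the mean of all its probe sets (0.59, adjusted p = 0.0846). Cenpf, a large kinetochore protein made as cells near mitosis, had levels of 8.82 and 9.40 in U0126 day 2.5 embryos, against 7.96 and 7.99 in control day 2.5 embryos. The groups did not overlap, and the difference was 1.14 ± 0.26 (adjusted p = 0.0188). Leaving out either control array ended this call (adjusted p = 0.0983 for replicate 1 and 0.082 for replicate 2), as did leaving out U0126 day 2.5 replicate 2 (0.0812) or taking the mean of all its probe sets (adjusted p = 0.0782). Both genes had their lowest mean of all 6 groups in control day 2.5 embryos. The second Cenpf probe set had means of 5.90 in U0126 day 2.5 and 4.99 in control day 2.5 embryos. U0126 day 2.5 embryos also differed from the same controls in some stage markers. Btg4, an oocyte gene, was 2.46 ± 0.29 higher (adjusted p = 0.00135) and Krt8 differed by -3.19 (adjusted p = 0.00199). The oocyte genes Bmp15, Zp3, Oosp1 and Gdf9 were higher by 0.47 to 1.14 and did not pass. Of the morula and blastocyst genes, Cdx2, Krt18, Nanog and Cldn4 were lower and passed. Sox2 went the other way, 1.82 higher, and did not pass (adjusted p = 0.066). Of the 2-cell genes, Zfp352 was 2.81 ± 0.79 higher (adjusted p = 0.0399), and Eif1a differed by -0.63 and did not pass (adjusted p = 0.123). The part of developmental stage in the Spc25 and Cenpf differences was not tested.

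The partners of Spc25 in the NDC80 complex did not pass in this comparison. Spc24 had levels of 7.22 and 7.22 in U0126 day 2.5 embryos, against 7.21 and 7.37 in control day 2.5 embryos, and its difference had an interval from -0.57 to 0.43 at 95% confidence. Ndc80 had 8.85 and 9.15 in U0126 day 2.5 embryos and 8.76 and 9.31 in control day 2.5 embryos, so that the groups overlapped. Nuf2 stood near the level of 5 used in the filter, at 5.99 and 5.40 in U0126 day 2.5 embryos and 5.49 and 5.47 in control day 2.5 embryos. The lowest of the 40 differences was that of Anln, the anillin that scaffolds the cleavage furrow, at -0.82 ± 0.29 (adjusted p = 0.0936). Its levels were 10.05 and 10.83 in U0126 day 2.5 embryos, against 11.19 and 11.34 in control day 2.5 embryos.

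The kinases, the checkpoint and the motors are given by their values, since 0 of them passed between U0126 day 2.5 and control day 2.5 embryos. Aurka, the Aurora kinase of centrosomes, had levels of 10.44 and 10.16 in U0126 day 2.5 embryos, against 11.21 and 10.62 in control day 2.5 embryos. The U0126 arrays lay below the controls, with a 95% interval of the difference from -1.48 to 0.25. Plk1, the main Polo-like kinase of mitosis, had 9.27 and 8.58 in U0126 day 2.5 embryos, against 9.42 and 9.11 in control day 2.5 embryos, and its groups overlapped (interval from -1.33 to 0.65). Kif11, the motor that pushes spindle poles apart, had 7.13 and 7.12 in U0126 day 2.5 embryos, against 7.64 and 7.95 in control day 2.5 embryos (-0.67 ± 0.24, adjusted p = 0.0952). Its arrays did not overlap, but the difference missed the threshold. Bub1 had 9.42 and 9.53 in U0126 day 2.5 embryos, against 9.60 and 9.72 in control day 2.5 embryos, with an interval from -0.71 to 0.34. Mad2l1, which inhibits Cdc20 while the checkpoint is active, had 11.55 and 12.14 in U0126 day 2.5 embryos, against 11.66 and 11.72 in control day 2.5 embryos, and its groups overlapped. Incenp, which anchors the Aurora kinase of the passenger complex, had 12.75 and 12.67 in U0126 day 2.5 embryos, against 11.95 and 12.15 in control day 2.5 embryos (0.66 ± 0.24, adjusted p = 0.0976).

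**Figure D3:**
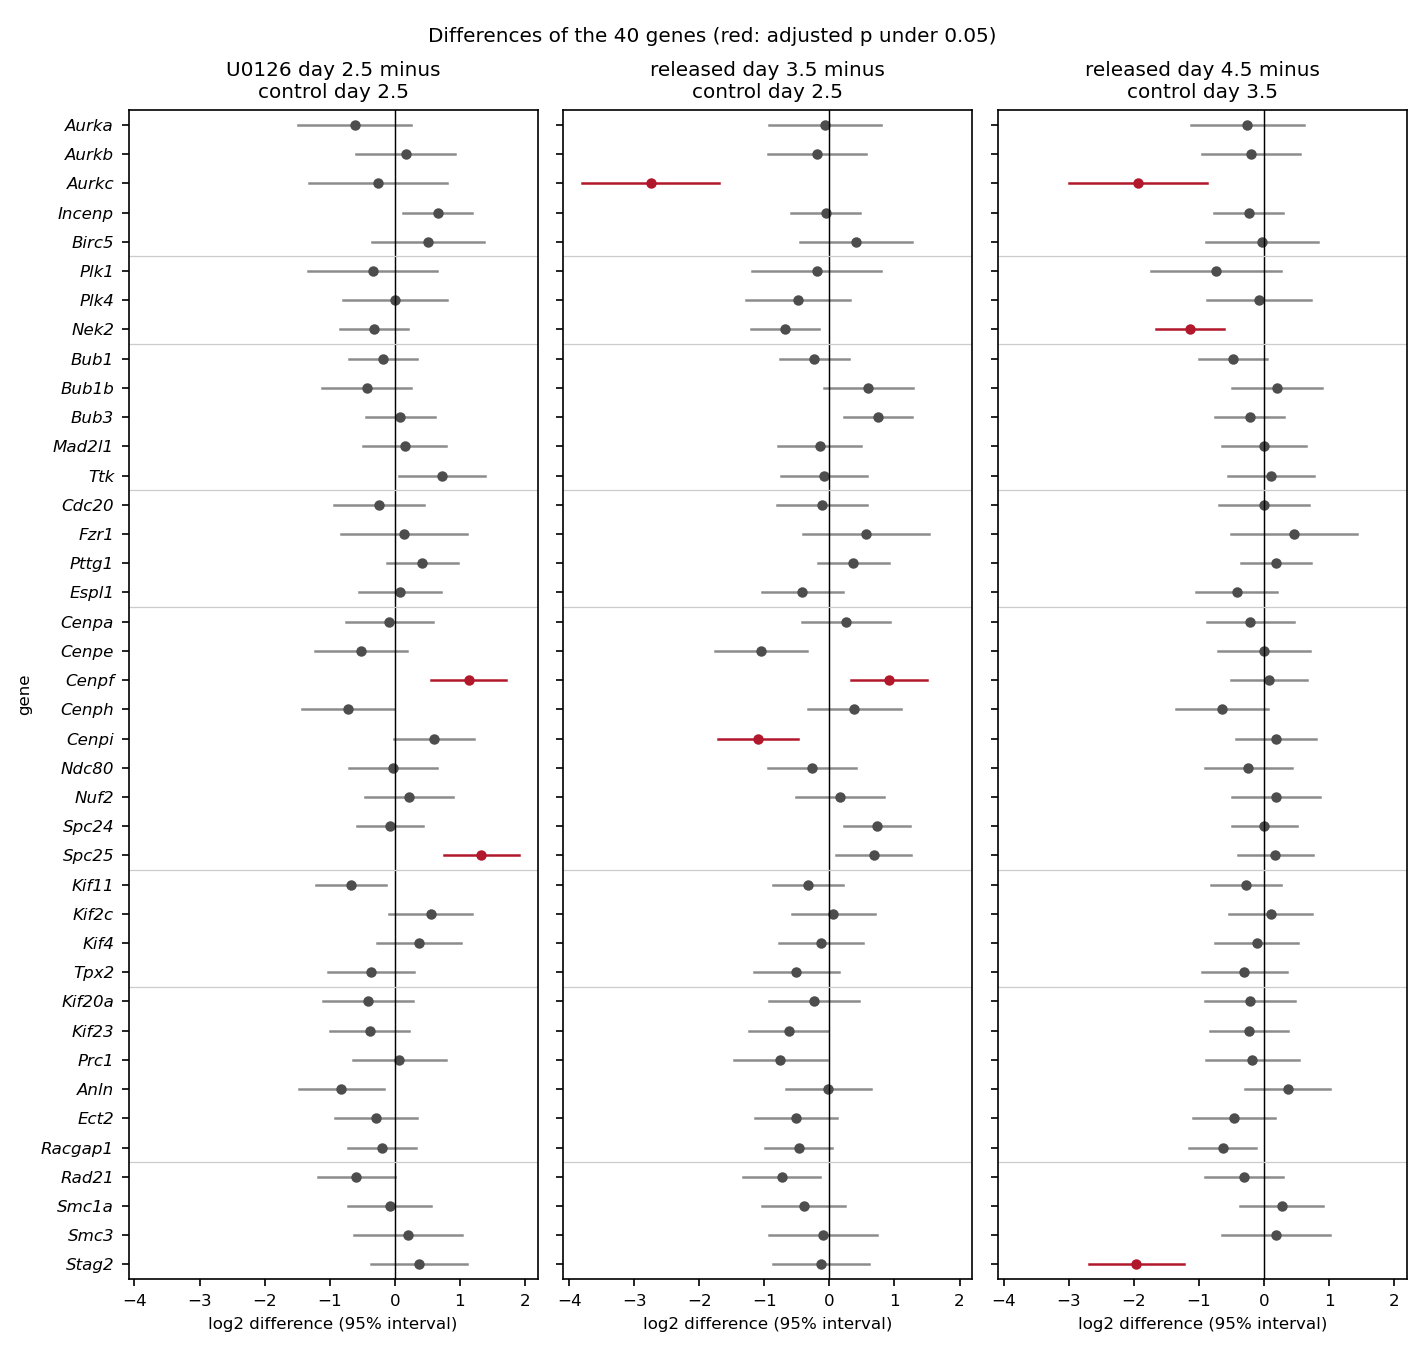
Log2 differences of the 40 genes, in order of role from top to bottom, for U0126 day 2.5 minus control day 2.5, released day 3.5 minus control day 2.5 and released day 4.5 minus control day 3.5 embryos. Points are fitted differences, bars are 95% intervals from limma, and red marks an adjusted p under 0.05. Red points number 2, 3 and 3 in the 3 panels, and most other intervals cross 0.

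Among 129 other genes of mitosis, chosen as 7 lists by function, 123 were tested, and under U0126 11 passed as higher and 2 as lower than in control day 2.5 embryos, which is 10.6% against the 13.9% of all genes. The passing genes were 3 higher and 1 lower of 19 mitotic entry regulators, 2 higher of 28 other kinetochore genes, 2 higher of 23 other spindle motors and microtubule factors, 2 higher of 18 centriole and centrosome genes, 1 higher of 8 condensin genes, 1 higher of 12 cohesin loaders and regulators, and 1 lower of 15 genes of the anaphase-promoting complex and its E2 enzymes. Foxm1, a transcription factor that activates genes of the G2 and M phases, had levels of 6.79 and 6.68 in U0126 day 2.5 embryos, against 5.34 and 4.23 in control day 2.5 embryos. It was 1.95 ± 0.33 higher (adjusted p = 0.00554) and passed under every alternative, with control day 2.5 near the filter's level of 5. Its U0126 levels lay below those of control day 1.5 embryos, which are given below. Fbxo5, known as Emi1, an inhibitor of the anaphase-promoting complex, had 9.07 and 8.84 in U0126 day 2.5 embryos, against 10.13 and 9.83 in control day 2.5 embryos, a difference of -1.02 ± 0.24 (adjusted p = 0.0206). Leaving out either control array ended the Fbxo5 call (adjusted p = 0.143 for replicate 1 and 0.0562 for replicate 2), as did leaving out U0126 day 2.5 replicate 2 (0.0723).

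Against the younger control day 1.5 embryos, which have 2 cells, the U0126-arrested embryos differed in many of the mitosis genes. Of the 40 genes 5 were higher and 16 lower, or 52.5%, while 50.1% of all tested genes passed (28.1% higher and 22% lower). Control day 2.5 embryos differed from control day 1.5 embryos with 7 genes higher and 12 lower, or 47.5%, while 55.4% of all genes passed (28% higher and 27.4% lower). By direction, 12.5% of the 40 genes were higher and 40% lower under U0126, and 17.5% were higher and 30% lower in control day 2.5 embryos. Both comparisons share the control day 1.5 arrays. The median difference of the 40 genes was -0.52 for U0126 day 2.5 and -0.24 for control day 2.5, beside 0.18 and 0.09 for all tested genes.

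Of the 40 genes the kinetochore genes Nuf2 and Spc25 had the largest falls by control day 2.5. Nuf2, a subunit of the NDC80 complex, had levels of 5.49 and 5.47 in control day 2.5 embryos, against 7.91 and 8.35 in control day 1.5 embryos, a difference of -2.65 ± 0.31 (adjusted p = 3.76e-05). Spc25 fell by 2.56 (adjusted p = 1.64e-05) to 9.08 and 9.48 in control day 2.5 embryos, against 12 and 11.67 in control day 1.5 embryos. Cenpf fell by 2.19 (adjusted p = 4.83e-05) to 7.96 and 7.99 in control day 2.5 embryos, against 10.30 and 10.04 in control day 1.5 embryos. For these 3 genes the day 2.5 arrays lay more than 2 units below those of day 1.5. In U0126 day 2.5 embryos the differences from control day 1.5 embryos were -2.43 ± 0.31 for Nuf2 (adjusted p = 0.0001), -1.22 ± 0.26 for Spc25 (adjusted p = 0.00281) and -1.06 ± 0.26 for Cenpf (adjusted p = 0.00664). The Cenpf call was lost without U0126 day 2.5 replicate 1 (adjusted p = 0.0534). Spc24 moved in the other direction, with levels of 7.22 and 7.22 in U0126 day 2.5 embryos and 7.21 and 7.37 in control day 2.5 embryos, against 5.67 and 5.70 in control day 1.5 embryos. It rose by 1.54 and 1.61 (adjusted p = 0.000276 and 0.000149), so that subunits of the same complex moved in opposite directions between these stages.

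Both directions were also found among the kinases and the checkpoint genes. Plk4 had levels of 9.77 and 8.88 in U0126 day 2.5 embryos and 8.96 and 9.68 in control day 2.5 embryos, against 11.48 and 11.80 in control day 1.5 embryos. Plk4 differed from control day 1.5 by -2.31 under U0126 (adjusted p = 0.000385) and by -2.32 in control day 2.5 embryos (adjusted p = 0.000285). In the spindle checkpoint, Ttk, the kinase that starts checkpoint signalling, had 8.71 and 9.15 in U0126 day 2.5 embryos and 8.02 and 8.38 in control day 2.5 embryos, against 10.13 and 10.73 in control day 1.5 embryos. Bub1b, the checkpoint protein BubR1, had the opposite order, with 8.60 and 8.35 in U0126 day 2.5 embryos and 8.96 and 8.86 in control day 2.5 embryos, against 6.86 and 7.61 in control day 1.5 embryos. The Ttk differences were -1.50 under U0126 (adjusted p = 0.00183) and -2.23 in controls (adjusted p = 0.000103). Bub1b rose by 1.24 under U0126 (adjusted p = 0.00715) and by 1.67 in controls (adjusted p = 0.00098), and the first of these calls was lost without control day 1.5 replicate 1 (adjusted p = 0.0541) and with the mean of all its probe sets (adjusted p = 0.161).

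Further genes passed in each of these comparisons, given here with the U0126 difference first. The checkpoint kinase Bub1 was higher, by 0.99 under U0126 and 1.17 in controls, and the inner kinetochore protein Cenpi was higher by 1.55 and 0.95. The Cenpi call in controls ended when the first replicate of either group was left out (adjusted p = 0.0569 without that of day 1.5 and 0.101 without that of day 2.5). Stag2 was higher by 1.71 and 1.33. Lower were the checkpoint protein Mad2l1 (-1.30 and -1.45), securin, Pttg1 (-1.02 and -1.44), the microtubule-depolymerising kinesin Kif2c (-1.68 and -2.23), Nek2 (-1.09 and -0.78), the passenger scaffold Incenp (-0.64 and -1.30), separase, Espl1 (-0.76 and -0.85), and the centromeric histone Cenpa (-0.94 and -0.86). For Bub1, Stag2, Mad2l1, Pttg1 and Kif2c both calls were kept under every alternative.

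Several of these calls were lost when 1 array was left out or with the mean of all probe sets. The calls under U0126 were lost for Incenp with any 1 of the 4 arrays left out (adjusted p from 0.0865 to 0.123), for Espl1 without control day 1.5 replicate 1 (0.185) or either U0126 array (0.0705 and 0.145), and for Cenpa without control day 1.5 replicate 1 (0.157) or U0126 day 2.5 replicate 1 (0.16). With the mean of all probe sets the calls of Incenp, Nek2 and Cenpa in controls were lost (adjusted p = 0.0866, 0.171 and 0.693), as was that of Cenpa under U0126 (0.0571). In controls the call of Nek2 was lost without either day 2.5 array (adjusted p = 0.0672 and 0.0619), and those of Espl1 and Cenpa were lost without control day 1.5 replicate 1 (0.126 and 0.211), control day 2.5 replicate 1 (0.0632 and 0.096) or control day 2.5 replicate 2 (0.114 and 0.112). Passing under U0126 and not in controls were Aurka, the centrosomal Aurora kinase (-1.19), Cenph, an inner kinetochore protein (-0.98), Racgap1, a subunit of the centralspindlin complex (-0.79), and Rad21, the cohesin cut by separase (-0.71). Passing in controls and not under U0126 were the spindle motor Kif11 (0.84) and the cohesin subunit Smc1a (0.81). The difference between U0126 and control day 2.5 passed for none of these 6 genes. The Aurka call under U0126 was lost in 4 of the 9 alternatives run on it. Leaving out 1 array ended the calls of Aurka (adjusted p up to 0.16 without control day 1.5 replicate 1, U0126 day 2.5 replicate 1 or replicate 2), Cenph (0.14 and 0.181 without control day 1.5 replicate 1 or U0126 day 2.5 replicate 1), Racgap1 (0.0607 without U0126 day 2.5 replicate 1), Rad21 (up to 0.265 without either control day 1.5 array or U0126 day 2.5 replicate 1), Kif11 (0.05 and 0.0973 without control day 1.5 replicate 1 or control day 2.5 replicate 2, and 0.228 with the mean of its probe sets) and Smc1a (up to 0.183 without control day 1.5 replicate 1 or either control day 2.5 array).

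**Figure D4:**
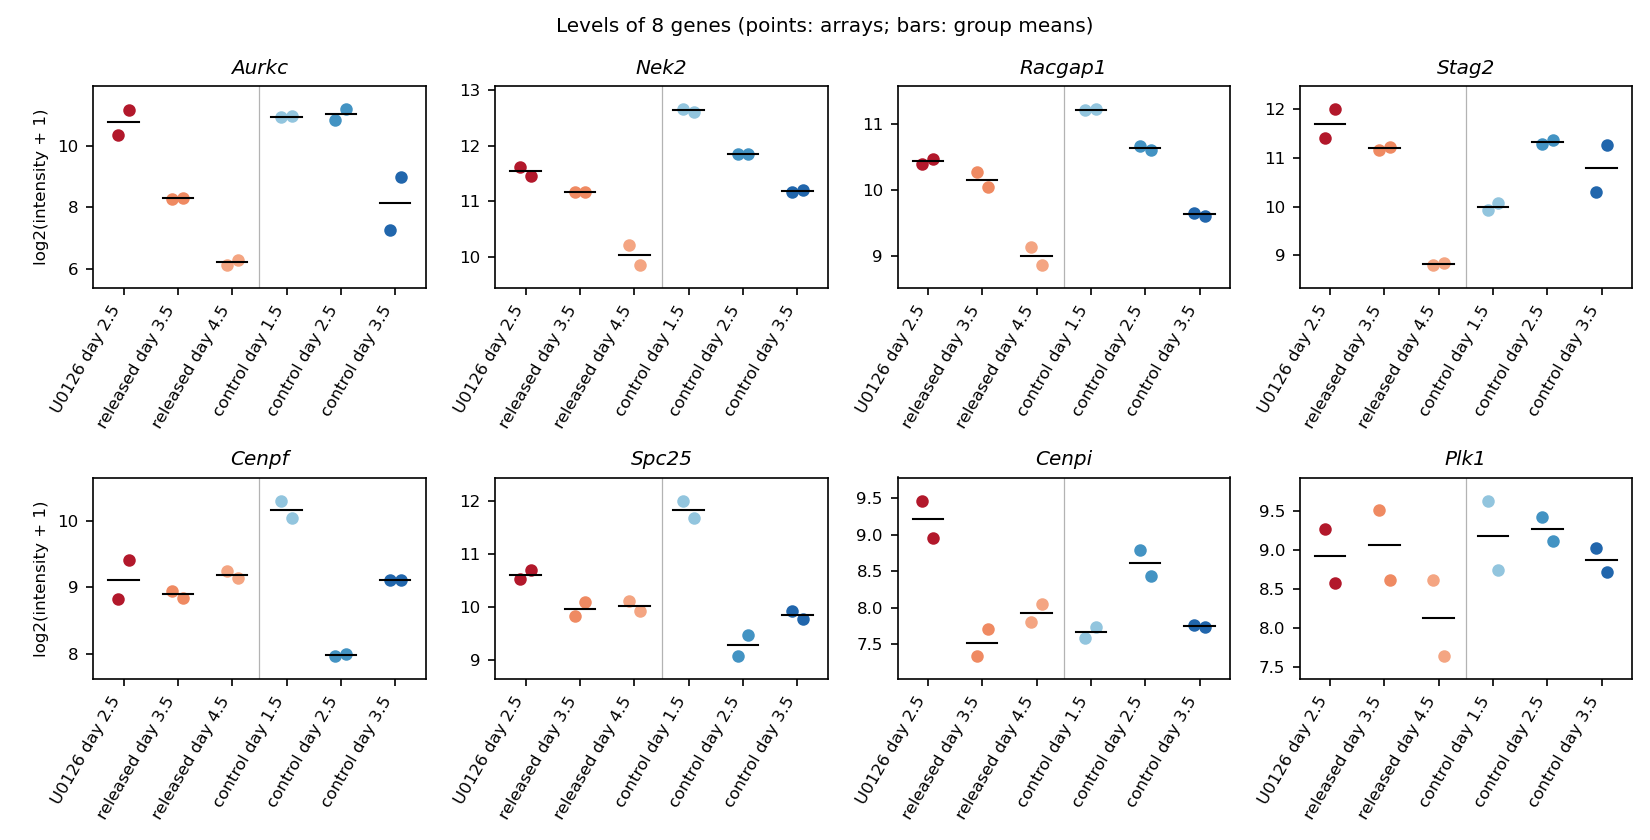
Log2 levels on each array, 1 panel for each of 8 genes. The horizontal axis holds the groups, with U0126 and released embryos left of the controls, points are arrays and bars are group means. Aurkc is lower at released day 3.5 and 4.5 and at control day 3.5 than in the other groups, and Cenpf and Spc25 have their lowest mean at control day 2.5.

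In the other mitosis lists both directions were found too. Set against control day 1.5 embryos, 19 of the 123 genes were higher and 33 lower under U0126, or 42.3% against 50.1% of all genes, and 19 were higher and 46 lower in control day 2.5 embryos, or 52.8% against 55.4%. In controls, where 28% of all genes were higher and 27.4% lower, the lower genes included 13 of 28 other kinetochore genes, 12 of 23 other spindle motors and microtubule factors, and 6 of 18 centriole and centrosome genes, while 3 of 15 genes of the anaphase-promoting complex were higher and 0 lower. Cdc27, among those 3, changed sign with the mean of its probe sets. Foxm1 had levels of 5.34 and 4.23 in control day 2.5 embryos, against 8.38 and 8.41 in control day 1.5 embryos, a difference of -3.61 ± 0.33 (adjusted p = 8.58e-06). Smc1b, a cohesin subunit of meiosis, had 5.63 and 5.27 in control day 2.5 embryos, against 9.24 and 9.29 in control day 1.5 embryos, a difference of -3.82 ± 0.41 (adjusted p = 2.47e-05).

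On the first day after release, 3 mitosis genes were higher and 3 lower in released day 3.5 than in U0126 day 2.5 embryos, or 15% against 28.2% of all tested genes (13.7% higher and 14.5% lower). Aurkc had levels of 8.28 and 8.33 in released day 3.5 embryos, against 10.39 and 11.19 in U0126 day 2.5 embryos. The groups were more than 2 units apart, and Aurkc fell by 2.49 (adjusted p = 0.00372). Cenpi had 7.33 and 7.70 in released day 3.5 embryos, against 9.46 and 8.95 in U0126 day 2.5 embryos, and fell by 1.69 (adjusted p = 0.00166). The calls of Aurkc and Cenpi were kept under every alternative. The third lower gene was Incenp (-0.72 ± 0.24, adjusted p = 0.0464), whose call was lost whenever 1 of the 4 arrays was left out (adjusted p from 0.0676 to 0.244) and whose sign turned with the mean of all its probe sets.

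The 3 higher genes after release were Cenph, with 7.13 and 7.35 in released day 3.5 embryos against 5.81 and 6.47 in U0126 day 2.5 embryos, Bub1b, with 9.73 and 9.29 against 8.60 and 8.35 in U0126 day 2.5 embryos, and Spc24, with 8.10 and 7.95 against 7.22 and 7.22 in U0126 day 2.5 embryos. In these 3 genes, picked because they passed as higher, both released arrays lay above both U0126 arrays, which adds no separate support. Cenph rose by 1.10 ± 0.32 (adjusted p = 0.0276), Bub1b by 1.03 ± 0.31 (adjusted p = 0.0315) and Spc24 by 0.80 ± 0.23 (adjusted p = 0.0238). These calls were lost when 1 array was left out. For Bub1b this was so for each of the 4 arrays (adjusted p from 0.0537 to 0.176), and with the mean of its probe sets (0.0589), and for Spc24 for each of the 4 (0.0634 to 0.119). For Cenph it was so for U0126 day 2.5 replicate 1 (0.151) and both released day 3.5 arrays (0.0711 and 0.133). In the other mitosis lists 13 genes were higher and 20 lower, or 26.8% against the 28.2% of all genes. They included Nek6, a kinase of the NIMA family, at 6.67 and 6.86 in released day 3.5 embryos, against 3.04 and 3.85 in U0126 day 2.5 embryos, where it stood under the filter's level (3.31 ± 0.32, adjusted p = 0.000106).

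Released day 3.5 embryos, labelled as the 8-cell stage, were set against control day 2.5 embryos of 4 to 8 cells. Of the 40 genes 1 was higher and 2 were lower, or 7.5%, against 12.7% of all tested genes (8.61% higher and 4.05% lower). Aurkc had levels of 8.28 and 8.33 in released day 3.5 embryos, against 10.88 and 11.22 in control day 2.5 embryos, a difference of -2.75 ± 0.48 (adjusted p = 0.00683). The arrays were 2.5 units or more apart, and the call was lost without control day 2.5 replicate 2 (-2.58, adjusted p = 0.0522). Krt8 was 3.59 ± 0.42 higher in the same comparison (adjusted p = 0.00135), and Aurkc also fell by 2.91 in control day 3.5 against control day 2.5 embryos. The 2-cell gene Zfp352 was likewise higher in released day 3.5 than in control day 2.5 embryos, by 3.88 ± 0.79 (adjusted p = 0.0123). Eif1a differed by -0.40 and did not pass (adjusted p = 0.325). Cenpi had 7.33 and 7.70 in released day 3.5 embryos, against 8.79 and 8.43 in control day 2.5 embryos, a difference of -1.09 ± 0.28 (adjusted p = 0.0293). Cenpf was higher, with 8.95 and 8.84 in released day 3.5 embryos against 7.96 and 7.99 in control day 2.5 embryos (0.92 ± 0.26, adjusted p = 0.0452). Each of these calls was lost whenever 1 of the 4 arrays was left out, at adjusted p from 0.0791 to 0.161 for Cenpi and from 0.149 to 0.172 for Cenpf. With the mean of all its probe sets Cenpf differed by 0.39 (adjusted p = 0.306). Between control day 3.5 and control day 2.5 embryos the differences were -0.86 for Cenpi and 1.13 for Cenpf. The part of the developmental stage in these 3 differences was not tested. In the other mitosis lists 8 genes were higher and 4 lower, or 9.76% against the 12.7% of all genes. They were 2 higher and 1 lower of the mitotic entry regulators, 2 higher and 1 lower of the other kinetochore genes, 2 higher of condensin, 1 higher of the cohesin loaders and regulators, 1 higher and 1 lower of the anaphase-promoting complex list, 1 lower of the centriole and centrosome genes and 0 of the other spindle motors.

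Released day 4.5 embryos were set against control day 3.5 embryos, both between morula and blastocyst, and here 0 of the 40 genes were higher and 3 were lower, or 7.5% against 5.88% of all tested genes (3.85% higher and 2.03% lower). Stag2 had levels of 8.81 and 8.84 in released day 4.5 embryos, against 10.31 and 11.26 in control day 3.5 embryos. Both released arrays lay more than 1 unit below the lower control, and the difference was -1.96 ± 0.33 (adjusted p = 0.00807). The call was lost without control day 3.5 replicate 2 (-1.48, adjusted p = 0.094), released day 4.5 replicate 1 (0.0631) or released day 4.5 replicate 2 (0.0665). The other Stag2 probe set over the level of 5 had a difference of -0.63, in the same direction. Nek2 had levels of 10.22 and 9.86 in released day 4.5 embryos, against 11.16 and 11.20 in control day 3.5 embryos, a difference of -1.14 ± 0.24 (adjusted p = 0.0202). Its groups were well apart, its other probe set gave -1.28, and the call was lost whenever 1 of the 4 arrays was left out (adjusted p from 0.063 to 0.182) and with the mean of its probe sets (-0.68, adjusted p = 0.108).

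Aurkc, the third of these genes, had levels of 6.13 and 6.28 in released day 4.5 embryos, against 7.28 and 9.01 in control day 3.5 embryos. The control arrays were further apart from each other than the released arrays were from the lower control. The difference of -1.94 ± 0.48 (adjusted p = 0.0404) was lost without control day 3.5 replicate 2 (-1.07, adjusted p = 0.311), released day 4.5 replicate 1 (0.178) or released day 4.5 replicate 2 (0.179), and with no filter on low values (0.104). Control day 3.5 replicate 2 also had the lower Krt8 level, 12.98 against 13.84 in replicate 1. Its level of Btg4, an oocyte gene, was the higher, 4.46 against 4.07, but both were under the filter's level of 5. The part of embryo stage on that array in the Aurkc difference was not tested. Of the 123 other mitosis genes 0 were higher and 1 was lower, or 0.813% against the 5.88% of all genes. It was Sass6, which builds the centriole cartwheel, with 6.34 and 6.21 in released day 4.5 embryos against 7.39 and 7.5 in control day 3.5 embryos (-1.17 ± 0.27, adjusted p = 0.0304). Its call was lost whenever 1 of the 4 arrays was left out (adjusted p from 0.0779 to 0.237) and with the mean of its probe sets (-0.45, adjusted p = 0.264).

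In the last step after release, from day 3.5 to day 4.5, 0 mitosis genes were higher and 4 lower, or 10% against 13.7% of all tested genes (7.37% higher and 6.37% lower). Stag2 had levels of 8.81 and 8.84 in released day 4.5 embryos, against 11.17 and 11.23 in released day 3.5 embryos, and fell by 2.38 (adjusted p = 0.00182), a call kept under every alternative. Its other probe set gave -0.55. Aurkc fell by 2.10 (adjusted p = 0.0175) to 6.13 and 6.28 in released day 4.5 embryos, against 8.28 and 8.33 in released day 3.5 embryos. The call was lost whenever 1 of the 4 arrays was left out (adjusted p from 0.0721 to 0.0916) and with no filter (0.0536). Nek2 had 10.22 and 9.86 in released day 4.5 embryos, against 11.16 and 11.16 in released day 3.5 embryos, and fell by 1.12 (adjusted p = 0.0125). That call was lost with the mean of its probe sets (-0.70, adjusted p = 0.0614) and without released day 3.5 replicate 1 (0.0792), released day 3.5 replicate 2 (0.0573) or released day 4.5 replicate 2 (0.124). Racgap1 had 9.13 and 8.86 in released day 4.5 embryos, against 10.27 and 10.04 in released day 3.5 embryos, and fell by 1.16 (adjusted p = 0.0104). Its other probe set gave 0.69, in the opposite direction, and its call was lost with the mean of the probe sets (-0.21, adjusted p = 0.511) and without released day 3.5 replicate 1 (0.0862) or released day 4.5 replicate 2 (0.101).

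In control embryos the step from day 2.5 to day 3.5 held 1 higher and 4 lower mitosis genes, or 12.5% against 21.6% of all tested genes (13.4% higher and 8.28% lower). Aurkc had levels of 7.28 and 9.01 in control day 3.5 embryos, against 10.88 and 11.22 in control day 2.5 embryos, and fell by 2.91 (adjusted p = 0.00255), a call kept under every alternative. Cenpf had 9.12 and 9.11 in control day 3.5 embryos, against 7.96 and 7.99 in control day 2.5 embryos, and rose by 1.13 (adjusted p = 0.0129). The lower genes besides Aurkc were Racgap1 (-1.0, adjusted p = 0.0135), Espl1 (-0.87, adjusted p = 0.0498) and Cenpi (-0.86, adjusted p = 0.0497). The calls of these 4 genes were lost whenever 1 of the 4 arrays was left out, at adjusted p from 0.0507 to 0.0817 for Cenpf, 0.0568 to 0.078 for Racgap1, 0.107 to 0.218 for Espl1 and 0.0885 to 0.242 for Cenpi. With the mean of all probe sets the differences were 0.63 for Cenpf (adjusted p = 0.0811) and -0.30 for Racgap1 (adjusted p = 0.274). In the other mitosis lists 12 genes were higher and 6 lower, or 14.6% against the 21.6% of all genes. Nek6 had 8.09 and 7.52 in control day 3.5 embryos, against 5.03 and 4.98 in control day 2.5 embryos (2.80 ± 0.32, adjusted p = 0.000522), and Cdc25b, a phosphatase that activates the mitotic kinase Cdk1, had 4.84 and 4.67 in control day 3.5 embryos, against 6.77 and 6.64 in control day 2.5 embryos (-1.95 ± 0.32, adjusted p = 0.00264). Over the last released step, 3 of the 123 were higher and 5 lower, or 6.5% against the 13.7% of all genes. Among them was Ccna2, a cyclin of S phase and mitotic entry, which fell by 1.40 (adjusted p = 0.0112) to 10.66 and 10.12 in released day 4.5 embryos, against 12.04 and 11.54 in released day 3.5 embryos. That call was lost without released day 3.5 replicate 1 (0.0982) or released day 4.5 replicate 2 (0.114), and with the mean of its probe sets (0.0647).

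The released step was also tested against the control step, as the change from released day 3.5 to 4.5 minus the change from control day 2.5 to 3.5. By this test 0 of the 40 genes passed, against 2.34% of all genes (1.02% higher and 1.32% lower), and the count at an unadjusted p under 0.05 was 7. The nearest was Stag2, whose differences were -2.38 over the released step and -0.55 over the control step, a difference between the steps of -1.83 ± 0.47 (adjusted p = 0.0703). It passed under 3 of 13 alternatives, among them a pseudocount of 16 (adjusted p = 0.0489) and leaving out control day 3.5 replicate 1 (-2.31, adjusted p = 0.0423). With the mean of its probe sets it was -0.91 (adjusted p = 0.206). The Aurkc steps were -2.10 in released and -2.91 in control embryos. That none of the 40 genes passed does not show that the steps were alike. The steps also began at different Krt8 levels, 13.18 and 13.17 in released day 3.5 and 9.98 and 9.19 in control day 2.5 embryos. Of the marker genes checked, Nanog (-3.27, adjusted p = 0.00924), Btg4 (1.91, adjusted p = 0.042) and Sox17 (3.76, adjusted p = 0.0277) passed in this test. The part of the starting stage in the Stag2 value was not tested.

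The 16 genes that passed in none of the 8 differences made up 40% of the mitosis genes, while 23.2% of all tested genes passed in none. They were Aurkb and survivin, Birc5, of the passenger complex, Plk1, the checkpoint protein Bub3, the anaphase activators Cdc20 and Fzr1, Cenpe and Ndc80 of the kinetochore, Kif4 and Tpx2 of the spindle, Kif20a, Kif23, Prc1, Anln and Ect2 of cytokinesis, and the cohesin subunit Smc3. Under at least 1 alternative 11 of the 16 passed in some difference, and the 5 that passed under none were Aurkb, Cdc20, Fzr1, Kif20a and Tpx2. Their group means spanned 0.469 (Cdc20) to 1.48 (Anln). Cdc20 had 12.62 and 13.02 in U0126 day 2.5, 12.70 and 13.18 in released day 3.5, 12.52 and 12.88 in released day 4.5, 13.29 and 13.04 in control day 1.5, 12.77 and 13.36 in control day 2.5, and 12.53 and 12.86 in control day 3.5 embryos, so all arrays lay between 12.52 and 13.36. Birc5 had 11.18 and 10.78 in U0126 day 2.5, 11.20 and 10.56 in released day 3.5, 11.34 and 10.54 in released day 4.5, 11.46 and 11.35 in control day 1.5, 10.66 and 10.28 in control day 2.5, and 11.41 and 10.53 in control day 3.5 embryos. Outside control day 1.5 the Birc5 arrays of most groups overlapped. Anln had the widest span of these genes, with 10.05 and 10.83 in U0126 day 2.5, 11.25 and 11.25 in released day 3.5, 11.75 and 12.10 in released day 4.5, 10.93 and 10.96 in control day 1.5, 11.19 and 11.34 in control day 2.5, and 11.66 and 11.46 in control day 3.5 embryos. Its highest levels were those of released day 4.5 and its lowest was a U0126 array, and between released day 3.5 and U0126 day 2.5 embryos the difference was 0.80 ± 0.29 (adjusted p = 0.0644).

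In the central spindle and cytokinesis list 0 of 6 genes were higher and 1, Racgap1, lower over the control step. Over that step 13.4% of all tested genes were higher and 8.28% lower. The Racgap1 call was lost with any array of these groups left out. It was also lost with the mean of its probe sets (-0.30, adjusted p = 0.274). Kif23, the motor subunit of centralspindlin, had 10.07 and 9.88 in released day 4.5 embryos and 10.24 and 10.16 in control day 3.5 embryos, against 11.29 and 10.70 in control day 2.5 embryos, and its difference over the control step was -0.79 (adjusted p = 0.0617). Prc1, which bundles microtubules between the separating chromosomes, had 10.25 and 9.57 in released day 4.5 embryos and 10.15 and 10.02 in control day 3.5 embryos, against 11.07 and 10.63 in control day 2.5 embryos (-0.76 over the control step, adjusted p = 0.118). Neither gene passed. Racgap1 was also the 1 gene of this list that passed in any comparison, while 76.8% of all tested genes passed in at least 1.

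Where a difference was called and the gene had several probe sets, these mostly moved the same way. Differences that were not called were not counted. Of the 40 genes 14 had 1 probe set and 26 had several, and 23 had several over the level of 5. For 34 of the 63 called differences at least 1 other probe set of the gene was over that level. All of these had the same sign in 29, and 1 had the opposite sign in 5, which concerned Racgap1, Incenp and Cenpa. The Stag2 probe sets also disagreed where nothing passed. The main one had means of 11.71 in U0126 day 2.5 and 11.33 in control day 2.5 embryos, while the other had 10.39 in U0126 day 2.5 and 11.77 in control day 2.5 embryos. Aurkc is represented by 1 probe set, so that its values have no such check.

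**Figure D5:**
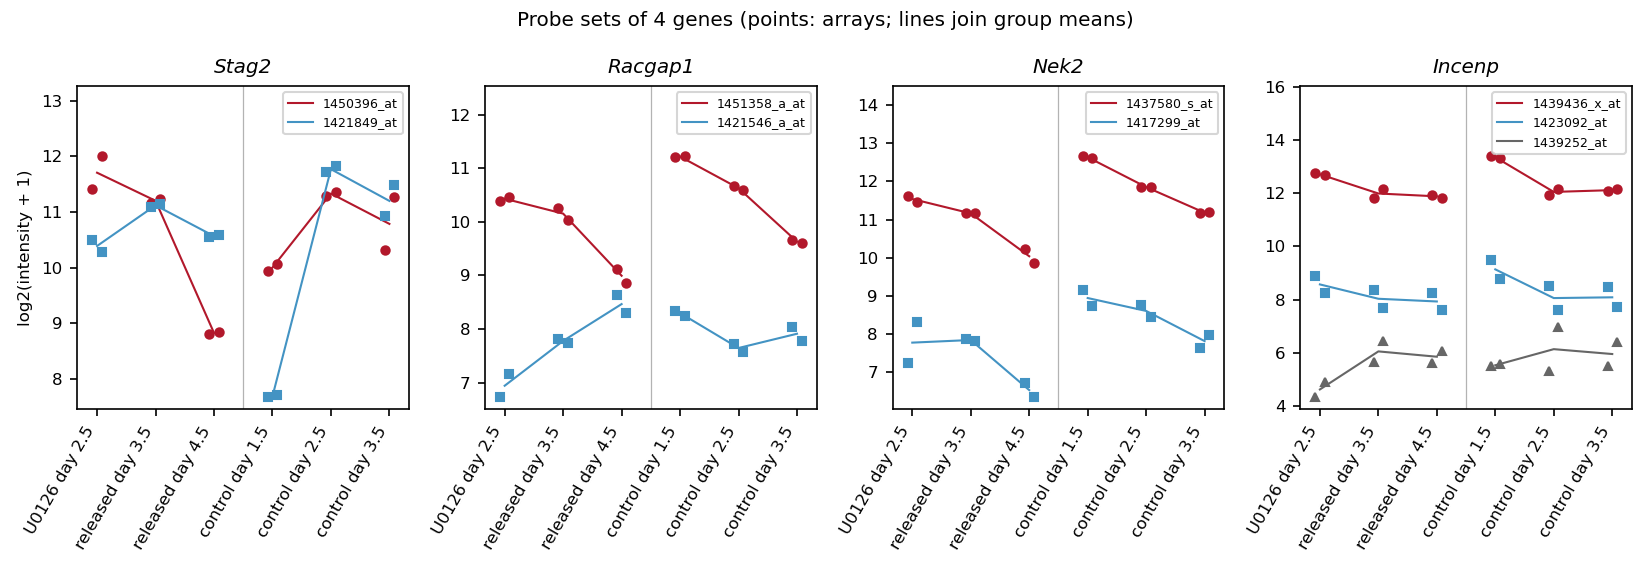
Log2 levels per array for the probe sets over the level of 5 of 4 genes with several, with U0126 and released groups left of the controls. Each colour is 1 probe set, points are arrays and lines join the group means. The Stag2 probe sets differ in order between U0126 day 2.5 and control day 2.5 embryos, and the Racgap1 probe sets run in opposite directions from released day 3.5 to released day 4.5.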

How the data were processed

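The authors hybridised labelled RNA from 12 samples of mouse embryos to 12 Mouse Genome 430 2.0 arrays, starting from 0.1 µg of total RNA with 2 labelling cycles, per the labels' protocols. The deposited values are linear intensities per probe set. Per the design text the software was GCOS 1.2 and GeneSpring 7.3, and per the submitters' processing notes the values came from GCRMA, which corrects background by probe sequence. The deposited intensities had array medians of 10.8 to 11.5 and maxima of 39856 to 49391, and no further normalization was applied. Arrays have no read depth, and their number limits the precision.

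Of 45101 probe sets, 64 controls, 932 with several gene symbols and 9211 with none were left out, which left 34958. The values were turned into log2(intensity + 1), and the probe set with the highest mean over the 12 arrays stood for each of 18194 genes. Genes at a log2 level of 5 or more on at least 2 arrays were tested, 9930 in all. One limma 3.58.1 fit in R 4.3.3 over all 12 arrays, with empirical Bayes moderation (6 residual and 4.51 prior degrees of freedom), gave the differences, and p-values were adjusted by the Benjamini-Hochberg method over the 9930 genes. Fold changes understate low genes because of the pseudocount of 1. The fit was also run on simulated data with independent noise and planted shifts larger than most of the differences that passed among the 40 genes. That run therefore says nothing about the smaller differences. The 40 genes and all lists were chosen with earlier results of these data known. All 40 genes are named, and of each other mitosis list up to 3 genes with the largest passing differences in a comparison could be named. Tables were handled with pandas 2.3.3 and plots drawn with matplotlib 3.10.9. The alternatives were a pseudocount of 16, no filter, median-centred arrays, the mean of a gene's probe sets, a replicate block, and each array left out.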

Additional observations from a re-analysis of the deposited data

How the results depend on the processing

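The alternatives were run on the counts of the 40 genes, the other mitosis genes and all genes that passed in each comparison. They were also run on each of the 40 genes and on the named genes of the other mitosis lists. Of the marker genes they were run on Btg4, Cdx2 and Krt8 only. Of the 63 differences of the 40 genes that passed, 28 passed under every alternative, 35 were lost under at least 1, and 1 changed sign: Incenp in released day 3.5 against U0126 day 2.5 embryos, 0.089 with the mean of all probe sets (adjusted p = 0.75). With the same setting Anln in control day 2.5 against day 1.5 became -1.16 (adjusted p = 0.0115), from 0.32 and not passing with its 1 main probe set. Of the other mitosis lists, Cdc27 in that comparison went from 0.87 (adjusted p = 0.0216) to -0.63 (adjusted p = 0.0243). It thus passed with opposite signs. In U0126 day 2.5 against control day 2.5, 2 of the 40 genes passed, with 4 for no filter, 0 for the mean of probe sets and 0 to 2 with an array left out. In U0126 day 2.5 against control day 1.5 the count was 21, and 13 to 21 with an array left out. For released day 3.5 against control day 2.5 it was 3, with 6 for a pseudocount of 16, 6 for no filter and 0 to 1 with an array left out. For released day 4.5 against control day 3.5 it was 3, and 0 to 2 with an array left out. For released day 3.5 against U0126 day 2.5 it was 6, and 2 to 4 with an array left out. For the released step to day 4.5 it was 4, and 1 to 3 with an array left out. For the control step to day 3.5 it was 5, with 10 for a pseudocount of 16, 8 for no filter and 1 to 2 with an array left out. For the difference of the 2 steps it was 0, with 1 for a pseudocount of 16 and 0 to 1 with an array left out. Median centring ended the calls of Espl1 and Rad21 in U0126 day 2.5 against control day 1.5 (adjusted p = 0.051 and 0.0508), of Espl1 and Cenpi in the control step to day 3.5 (0.0673 and 0.059) and of Incenp in released day 3.5 against U0126 day 2.5 (0.0515).

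Among the 123 other mitosis genes the counts with an array left out were 1 to 8 (13 with all arrays) in U0126 day 2.5 against control day 2.5, 0 to 3 (12) in released day 3.5 against control day 2.5, 0 (1) in released day 4.5 against control day 3.5, 18 to 27 (33) in released day 3.5 against U0126 day 2.5, 0 to 4 (8) in the released step and 3 to 10 (18) in the control step to day 3.5. In released day 4.5 against control day 3.5 the count was 3 with a pseudocount of 16, 2 with no filter and 2 with the mean of probe sets, and in the difference of the steps 1 with a pseudocount of 16.

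The replicate numbers are not tied to shared embryos or days by the labels. The differences between replicate 1 and 2 correlated positively in 15 of 15 pairs of groups (0.125 to 0.417). With the replicate number as a block, in the order of the comparisons above, 2, 25, 8, 3, 10, 7 and 11 of the 40 genes passed, 22 in control day 2.5 against day 1.5, and 1 (Stag2, adjusted p = 0.0284) in the difference of the steps. With the block, 25, 21, 5, 19 and 32 of the other mitosis genes passed in the same-day U0126 comparison, the comparisons of released day 3.5 and of released day 4.5 embryos with controls, the released step and the control step, and 2 in the difference of the steps. Over all genes the block moved the count in released day 3.5 against control day 2.5 to 2018 (1257 without it), in released day 4.5 against control day 3.5 to 1017 (584), in the released step to 2165 (1365) and in the difference of the steps to 615 (232). With an array left out, the lowest counts over all genes were 409 (1384 with all arrays) for U0126 day 2.5 against control day 2.5, 268 (1257) and 84 (584) for released day 3.5 and day 4.5 against those controls, 1630 (2799) for released day 3.5 against U0126 day 2.5, 321 (1365) and 677 (2148) for the released and control steps, and 30 (232) for the difference of the steps. The cause of these changes was not tested.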
